A study of Mus musculus with 3 samples.

Results

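C3H10T1/2 cells carrying the Venus vector were compared with untransfected C3H10T1/2 cells on expression arrays, over all probe sets that name a single gene symbol. These were 34945 of the 45101 probe sets on the array, and they stood for 18193 genes. C3H10T1/2 is a mouse mesenchymal line that can be driven toward cartilage, bone and fat. Venus is a yellow fluorescent protein, here in the pMIGR retroviral vector, and it carries no Mkx coding sequence. The Venus cells served as the control for cells given Venus-Mkx, so their difference from untransfected cells is the difference made before Mkx enters the design. The study reports that it saw no clear difference between Venus and untransfected cells in morphology or expression. It gives this as its reason for taking the Venus cells as control, and does not say there which genes or measure it compared. A supplementary figure of the study shows microarray clustering of the untransfected, Venus and Venus-Mkx cells. Its caption speaks of changes in the Venus-Mkx cells. Retroviral medium came from PLAT-E packaging cells and was applied with puromycin, whereas the untransfected cells are labelled as the control and no vector, packaging cell medium or puromycin is named for them.

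The series held 3 arrays, 1 of C3H10T1/2, 1 of Venus and 1 labelled Venus-Mkx, all of total RNA from cultures of the line. With 1 array per condition there was no replicate spread, no test and no p-value, and each value below describes these 2 cultures. The labels do not say whether both cultures came from the same passage, so an effect of the vector, of the selection and of separate culture cannot be told apart. The array labelled Venus-Mkx is given beside the others for orientation, and its values also enter the floor defined below. Whether it also took part in the normalization of the deposited values was not settled. Its single Mkx probe set read 6.88 in C3H10T1/2, 7.43 in Venus and 2.71 on that array, which is the reverse of what its label gives, but the probe set may read only the cells' own transcript, since its place relative to the Mkx insert was not examined. Scx, a tendon gene, read 5.01 in Venus and 7.26 on that array, and Sox9, a cartilage gene, 9.27 and 8.24.

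Type I interferon is released by cells that sense foreign nucleic acid, and it acts on neighbouring cells through a receptor, JAK kinases and a DNA-binding complex that holds IRF9. That complex binds short repeats of GAAA in the promoters of interferon-stimulated genes, whose products block viral entry, translation and replication. Interferon gamma acts through its own receptor, and among its best known targets are guanylate-binding proteins and immunity-related GTPases. Cartilage cells in turn are set by SOX9 with SOX5 and SOX6, and they secrete type II, IX and XI collagens together with aggrecan.

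Values are log2 probe set intensities as deposited. A gene was read from the 1 of its probe sets that was strongest on average in C3H10T1/2 and Venus, and it was measured where the higher of its values reached 4.34, the median of all values on the 3 arrays, called the floor here. Differences are Venus minus C3H10T1/2 after both values were raised to the floor, so a difference with 1 value below the floor is a lower bound on its size. Of the genes, 10851 were measured. The difference had a median of 0.00, quartiles of −0.081 and 0.12 and an SD of 0.32 over measured genes, and 92.8% of them lay within 0.5. For 15.7% of measured genes the deposited value was exactly equal on both arrays. Such ties enter the median and the spread, and their source was not tested. At least 2-fold higher in Venus were 132 genes, 1.22% of those measured, and 51 genes were at least 2-fold lower, 0.47% of those measured. Beyond 4-fold lay 23 higher and 4 lower genes, and beyond 8-fold 5 higher and 3 lower genes. The higher genes were mostly weak in C3H10T1/2, with a median level of 5.55 there and 7.13 in Venus, whereas the lower genes had a median of 8.32 in C3H10T1/2 and 6.97 in Venus. For comparison, the median level of all measured genes was 7.91 and 7.93. The share past 2-fold in either direction was 4.29% of genes with a mean level between 5 and 6 and 0% of those at 12 or above.

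**Figure D1:**
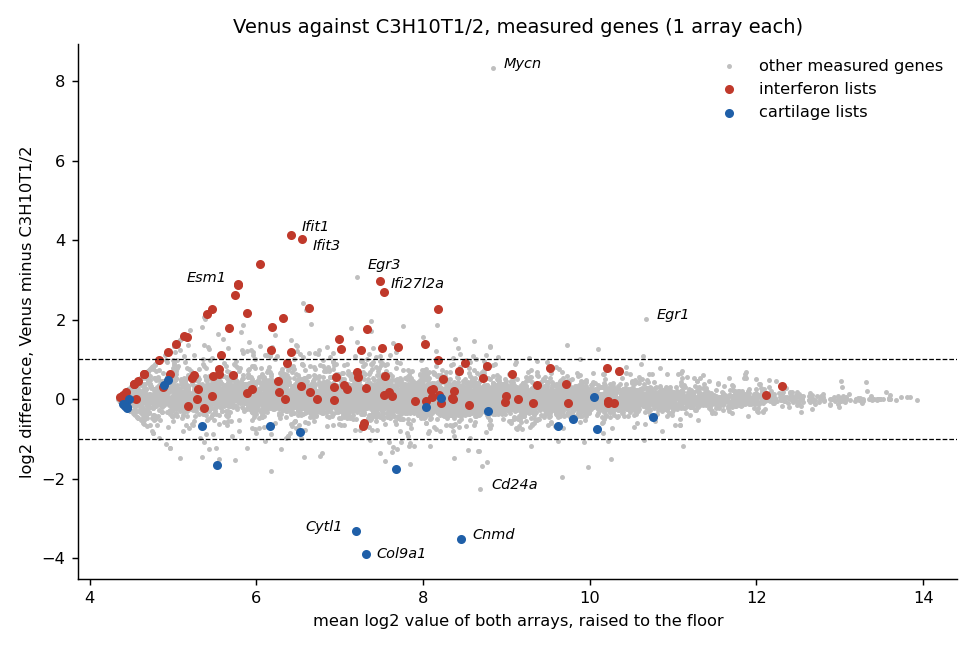
Each point is 1 measured gene, with the mean log2 value of the C3H10T1/2 and Venus arrays on the horizontal axis and the log2 difference, Venus minus C3H10T1/2, on the vertical axis, both after values were raised to the floor. Red points are members of the 11 interferon lists, blue points members of the 2 cartilage lists, grey points all other measured genes, and dashed lines mark 2-fold; the red points reach 4.14 above 0 and the blue points −3.91 below it, and Mycn stands alone at 8.32.

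The arrays were alike in RNA quality measures and unlike in their hybridization controls. The 3′ minus 5′ difference of the Actb control probe sets was 0.46 in C3H10T1/2 and 0.50 in Venus, and that of Gapdh −0.016 and 0.10. The 18 probe sets for bioB, bioC, bioD and cre, which are added at hybridization and not from the cells, were lower in Venus by a median of −0.81. Those for 18S rRNA, 3 in number, were lower by a median of −0.45, and the 24 poly-A controls had a median of 0.035. The Gapdh control probe sets themselves differed by −0.23 to −0.35, Venus minus C3H10T1/2, and those of Actb by −0.007 to 0.028. The part of these controls in the results was not tested. The median gene was at 0.00, but both arrays had a median of 4.34, so that median says nothing about these controls. Of the mesenchymal markers, 11 of 13 on the array were measured, among them Vim, the intermediate filament vimentin, at 13.45 and 13.47, and Fn1, fibronectin, at 13.08 and 12.89. Fap and Nt5e were below the floor on both arrays.

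Interferon-stimulated genes gave more of the higher genes than any other group listed. Over 11 lists, 200 genes were named, 156 were on the array, 111 were measured, 30 lay at least 2-fold above C3H10T1/2 and 0 lay that far below it. This is 27.0% of the measured members, against 1.22% of all measured genes, and 22.7% of all genes that were higher. These lists, like all gene lists here, were chosen with earlier results of these data known. Their shares thus describe the lists and are no test. Of the measured members, 90 had a difference above 0, and their median was 0.47 against 0.00 for all measured genes. That median was 0.26 with no floor and also 0.26 with the floor at the 75th percentile. In C3H10T1/2 the 30 higher members lay between 2.42 and 7.33, with a median of 5.14. In Venus they lay between 5.53 and 9.32, with a median of 7.28, and 9 of them were below the floor in C3H10T1/2. These genes were thus low or unread in untransfected cells. That all were above the floor in Venus cells follows from the call, which requires it. In such bulk RNA a higher level per cell and a larger share of cells with the transcript cannot be told apart. On the array labelled Venus-Mkx the same genes lay between 7.16 and 12.42, with a median of 10.43.

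Some promoters of these genes hold repeats of GAAA like those described above, and 5 such promoters are shown. Each window holds 300 bases of RefSeq sequence, 250 before the annotated start and 50 after it, on GRCm38.p6, written 5′ to 3′ on the strand of the gene, and capitals mark each match to GAAANNGAAA or to its reverse complement TTTCNNTTTC. The genes are those with the largest differences among the interferon members whose window holds a match, leaving out Mndal, whose probe set may read close relatives. They were chosen for the match and are no sample of the higher genes. Xaf1 and Phf11d, with larger differences than Gbp7, had windows with no match, and Iigp1, Usp18, Ifi27l2a and Rtp4 had no window in the table used.
Ifit1, chr19:34640639-34640938, plus strand: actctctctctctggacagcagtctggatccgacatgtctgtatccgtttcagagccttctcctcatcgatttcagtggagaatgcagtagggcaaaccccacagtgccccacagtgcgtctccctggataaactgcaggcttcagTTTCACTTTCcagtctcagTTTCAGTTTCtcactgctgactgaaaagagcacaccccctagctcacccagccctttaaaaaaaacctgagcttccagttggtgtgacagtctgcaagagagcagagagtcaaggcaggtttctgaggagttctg
Ifit3, chr19:34583279-34583578, plus strand: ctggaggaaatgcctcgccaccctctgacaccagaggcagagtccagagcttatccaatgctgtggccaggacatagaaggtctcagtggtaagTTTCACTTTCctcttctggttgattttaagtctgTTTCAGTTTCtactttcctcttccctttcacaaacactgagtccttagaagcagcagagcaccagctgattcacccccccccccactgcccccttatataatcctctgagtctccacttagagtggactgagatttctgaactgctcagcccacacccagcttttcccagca
Gbp3, chr3:142559794-142560093, plus strand: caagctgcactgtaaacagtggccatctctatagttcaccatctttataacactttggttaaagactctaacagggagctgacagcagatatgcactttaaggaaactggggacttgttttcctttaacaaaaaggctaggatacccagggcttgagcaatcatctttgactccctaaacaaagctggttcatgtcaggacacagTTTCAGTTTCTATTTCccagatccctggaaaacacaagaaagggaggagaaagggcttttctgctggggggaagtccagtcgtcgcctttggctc
Gbp7, chr3:142530086-142530385, plus strand: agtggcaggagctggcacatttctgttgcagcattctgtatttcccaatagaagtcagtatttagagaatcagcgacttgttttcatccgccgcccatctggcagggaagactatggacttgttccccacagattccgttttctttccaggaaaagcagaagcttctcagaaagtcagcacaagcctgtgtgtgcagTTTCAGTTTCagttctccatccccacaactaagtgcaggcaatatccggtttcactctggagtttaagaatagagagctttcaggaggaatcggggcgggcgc
Oas1a, chr5:120907476-120907775, minus strand: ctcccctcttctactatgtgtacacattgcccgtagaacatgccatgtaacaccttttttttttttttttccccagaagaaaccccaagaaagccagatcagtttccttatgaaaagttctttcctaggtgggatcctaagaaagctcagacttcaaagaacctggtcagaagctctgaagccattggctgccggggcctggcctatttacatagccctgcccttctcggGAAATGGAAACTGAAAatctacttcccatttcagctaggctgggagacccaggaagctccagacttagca
Ifit1 held separate matches at 104 to 95 and at 85 to 76 bases before its start, and Ifit3 at 156 to 147 and at 122 to 113 bases before it. In Gbp3 the matches overlapped, at 45 to 36 and 39 to 30 bases before the start, and its other RefSeq window held none. Gbp7 held 1 match at 53 to 44 bases before the start. Oas1a held overlapping matches at 20 to 11 and 14 to 5 bases before the start, close to where transcription begins.

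Of the 30 higher interferon members, 21 had a promoter window and 16 of these held the motif on either strand, which is 76.2%. In 13 genes a match lay before the start, with its nearest base 5 to 128 bases away and a median of 44. Among the interferon members that were measured but not at least 2-fold higher, 18 of 68 with a window held it, which is 26.5%. Over all genes with a window the share was 3.99%, 1079 of 27025, and over measured genes 3.46%. Higher genes outside the interferon lists held it in 1 of 75 cases, or 1.33%, and lower genes in 0 of 36. A match here is a run of letters and not a bound site, and the interferon lists were drawn up from genes known in the interferon response, many of them targets of such complexes.

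Effector genes gave the largest interferon differences. Ifit1, which encodes a protein that binds foreign RNA caps, was below the floor at 2.90 in C3H10T1/2 and read 8.48 in Venus, at least 17.6-fold higher. Ifit3, its partner in the same family, read 4.53 and 8.56, a difference of 4.02 or 16.3-fold. Ifi27l2a, an interferon-induced gene of the ISG12 family, read 5.99 and 8.96. In each of these 3 genes the value in Venus was 8.48 or more. Xaf1, which encodes a factor linked to apoptosis, read 6.18 and 8.88, and Rtp4, a receptor chaperone gene induced by interferon, 7.05 and 9.32. Phf11d read 5.48 and 7.77. Xaf1 and Rtp4 each had another probe set, which read 3.46 and 3.22, and 3.91 and 4.39, near or below the floor. Bst2, which encodes tetherin, a protein that holds budding virus at the membrane, read 6.44 and 8.21, and Mx2, an antiviral GTPase gene, 4.26 and 5.74. In all, 8 of 27 measured effectors were at least 2-fold higher, with a median difference of 0.63 over the list. Others of the same list barely differed: Ifitm3, which encodes a block to viral fusion, read 12.07 and 12.16, and Ifitm2 10.34 and 10.24. Ifi35 and Ifi27 lay between, with differences of 0.77 and 0.71.

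The GTPases had the highest share past 2-fold among lists with at least 8 measured members. Of 10 measured guanylate-binding proteins and immunity-related GTPases, which attack the membranes around intracellular pathogens, 9 passed 2-fold upward, and the median difference was 1.80. Iigp1 read 3.91 and 7.23, Gbp3 4.43 and 7.05, Gbp7 4.02 and 6.60, and Irgm2 3.89 and 6.48. Iigp1, Gbp7 and Irgm2 were thus below the floor in C3H10T1/2. Igtp read 5.30 and 7.34, Irgm1 7.33 and 8.72, and Ifi47 6.85 and 8.15, so that these 3 were already read in untransfected cells. Gbp2 and Gbp2b had differences of 1.56 and 1.19, and Gbp6, at 3.29 and 4.97, was the member short of 2-fold over the floor. For Gbp2 the probe set is marked as cross-hybridizing, and its other probe set gave 0.81 over the floor, so that call ended without such probe sets.

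Several of these genes are neighbours on their chromosomes. Of the 132 higher genes, 20 lay next to another higher gene in the order of measured genes, which is 15.2%, against 2.37% of all 10833 measured genes with a position, and none of the 51 lower genes had such a neighbour of its own direction. Gbp7, Gbp3, Gbp2b and Gbp2 followed each other on chromosome 3, Irgm1 with Ifi47 and Igtp with Irgm2 on chromosome 11, and Parp14, Dtx3l and Parp9 on chromosome 16. Ifi204 and Mndal adjoined on chromosome 1. Outside the interferon lists, the serpin genes Serpinb1a and Serpinb6b adjoined on chromosome 13, Arnt2, Gm30873 and Gm2115 on chromosome 7, and Slco2a1 and Rab6b on chromosome 9, named here only for their positions. Neighbours from 1 gene family can share probe sequence, so their values are not independent.

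Sensors of foreign RNA were among the higher genes, whereas the receptor and most of its transducers were not. Ifih1, which encodes the double-stranded RNA sensor MDA5, read 5.28 and 7.10, and Ddx58, which encodes RIG-I, 7.04 and 8.35. Eif2ak2, which encodes the RNA-activated kinase PKR, read 8.35 and 9.17, short of 2-fold. Of its other probe sets, 1440866_at passed 2-fold, at 6.69 and 7.88, and 1422006_at, with a difference of 0.69, did not. Cgas, the cytosolic DNA sensor, had a difference of −0.06, and Mavs, the adaptor of the RNA sensors, one of 0.20. In all 2 of 14 sensors passed 2-fold, both upward, and the list had a median of 0.19. Of 15 measured receptors and transducers, Irf9, the DNA-binding part of the interferon complex, was the 1 at least 2-fold higher, at 6.24 and 7.74. Ifnar2, a chain of the type I receptor, read 9.14 on both arrays, and Jak1, its kinase, 9.36 and 9.27. The median of that list was 0.02. Of the interferon regulatory factors 0 of 5 measured members were at least 2-fold apart, with Irf1 at 7.93 and 7.89 and Irf3 at 7.98 and 8.21.

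No interferon gene itself was seen to be higher. Of 10 interferon genes on the array only Ifnz was measured, at 8.95 and 9.04, and Ifnb1, which encodes interferon beta, was below the floor at 3.08 and 3.04. A level below the floor says that the gene was not read here, not that it was silent. Among cytokines and chemokines 1 of 15 measured genes was at least 2-fold higher, Il6, which encodes interleukin-6, at 4.73 and 6.36, and the list had a median of 0.31. Il1rn, which encodes the interleukin-1 receptor antagonist, read 10.97 and 10.34. Of 14 measured NF-kB components and targets, 0 were at least 2-fold apart, with Nfkbia at 10.63 and 10.71.

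The modifier systems that interferon induces were partly higher. Usp18, which encodes the protease that removes ISG15 and damps interferon signalling, was below the floor at 2.42 in C3H10T1/2 and read 7.22 in Venus, at least 7.35-fold higher. The linked genes Parp14, Dtx3l and Parp9, which encode an ADP-ribosyltransferase group with a ubiquitin ligase, had differences of 1.78, 1.23 and 1.23. Parp12 read 8.08 and 8.78, and Zc3hav1, the antiviral zinc finger protein, 10.26 and 10.18. In the OAS list, whose enzymes make the second messenger that activates RNase L, Oas1a read 4.81 and 6.97 and Oas2 5.01 and 6.13, and the other 5 of 7 measured members were short of 2-fold. Trim30a and Trim21, both TRIM ubiquitin ligase genes, had differences of 1.59 and 1.19. The mean of all probe sets lowered these to 0.93 and 0.81, and that of Parp14 to 0.51, below 2-fold. Of the Ifi200 family, DNA-binding proteins of the innate response, Mndal read 3.60 and 7.74 and Ifi204 6.38 and 7.64. Mndal has a second probe set, at 2.72 and 6.98, but both may read close relatives, so the gene is uncertain.

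Antigen presentation by MHC class I, a later arm of the same response, differed little. None of 13 measured genes was at least 2-fold apart, although 11 were above 0, with a median of 0.26. H2-D1, a heavy chain gene, read 8.04 and 8.95, B2m, which encodes the light chain, 12.14 and 12.46, and Tapbp, which encodes the loading factor tapasin, 8.45 and 8.99. Class I genes are close in sequence, so a probe set can read more than 1 of them.

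**Figure D2:**
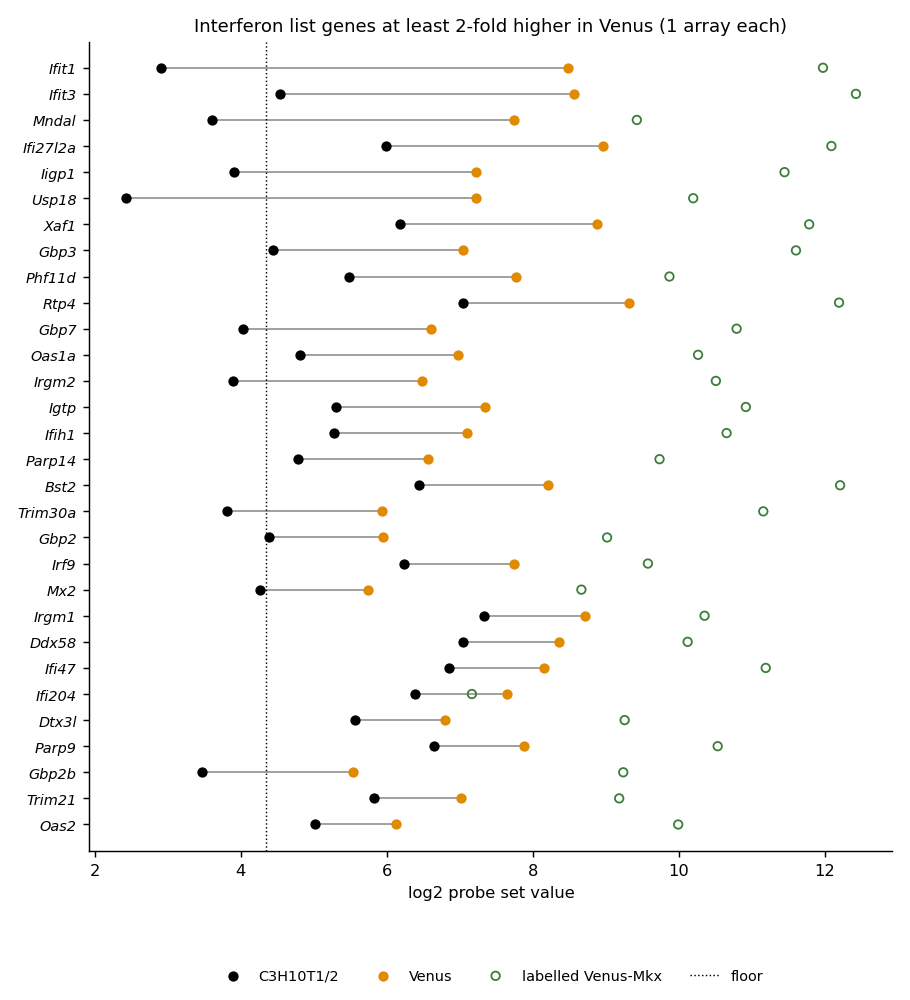
The log2 probe set value of each of the 30 interferon list genes that were at least 2-fold higher in Venus is drawn on the horizontal axis, with filled black points for C3H10T1/2, orange points for Venus, open green circles for the array labelled Venus-Mkx and a dotted line at the floor of 4.34. The black points run from 2.42 to 7.33 and the orange points from 5.53 to 9.32, with 9 black points to the left of the floor.

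Markers of immune cells were followed beside these genes. Of 11 macrophage markers, 3 were measured, Csf1r at 4.45 and 5.39, Lyz2 at 4.39 and 5.14, and Cd14 at 6.62 and 6.99. The other Csf1r probe sets, 1419873_s_at and 1423593_a_at, gave differences of 0.18 and −0.09, so its probe sets disagree. The defining markers Ptprc, Adgre1, Cd68 and Itgam were below the floor on both arrays. The linear values of the whole macrophage list summed to 197 in C3H10T1/2 and 260 in Venus, against 38984 and 40745 for the mesenchymal list. Of 7 lymphoid markers 1 was measured, and their sums were 92.3 and 87.1. Of endothelial, epithelial and neural markers 1 of 8, 2 of 8 and 4 of 8 were measured, and 0 of them passed 2-fold. The part of such cells in the results was not tested.

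Mycn gave the largest difference of all genes. Mycn encodes N-MYC, a transcription factor that drives growth, and its probe set 1425923_at read 4.68 in C3H10T1/2, 13.00 in Venus and 12.40 on the array labelled Venus-Mkx. The difference of 8.32 corresponds to 320-fold. The other probe sets of the gene, 1417155_at and 1425922_a_at, read 2.31 and 2.95 in C3H10T1/2 and 2.16 and 2.81 in Venus, all below the floor. The probe sets of Mycn thus disagree, their mean gave a difference of 1.65, and which transcript 1425923_at reads in Venus was not tested. Genes that MYC proteins are known to raise were also listed, and whether they were linked to the Mycn reading was not tested. Of 31 measured members of the list for MYC targets and ribosome biogenesis, 26 were below 0 and 4 above, with a median of −0.24, and 1 passed 2-fold, Tfrc, the transferrin receptor gene, at 9.55 and 7.98, which the mean of its probe sets brought to −0.84. Npm1, a nucleolar protein gene, read 12.79 and 12.72, and Ncl, which encodes nucleolin, 12.08 on both arrays. Myc itself read 8.47 and 8.16.

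Of the immediate early genes 4 of 23 measured members were at least 2-fold higher, 17.4% against 1.22% of all measured genes, and 3 of these were early growth response genes. EGR proteins are zinc finger transcription factors that cells make within minutes of serum, growth factor or mechanical stimulation, and EGR1 and EGR2 are also known in tendon. Egr3 read 5.66 and 8.74, Egr2 5.35 and 7.77, and Egr1 9.66 and 11.69. Nr4a1, an orphan nuclear receptor gene induced with them, read 6.51 and 8.24. Both probe sets of Egr2 passed 2-fold, with differences of 2.89 and 2.41, whereas the other probe set of Egr3 read 5.63 on both arrays. The median of the list was 0.26, and 19 members were short of 2-fold. Other members of the list were not higher to that extent, with Fos at 8.40 and 8.11, Jun at 9.49 and 9.77, Klf4 at 11.10 and 10.95 and Jund at 10.87 and 10.97. Fos was chosen after its value was seen.

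Cartilage genes gave more of the lower genes than any other group listed, though most lower genes were in no list. The 2 lists named 43 genes, of which 42 were on the array and 23 were measured. At least 2-fold lower were 5 of these, 21.7% against 0.47% of all measured genes, and 0 were at least 2-fold higher. The 5 made up 9.80% of all genes that were lower. These lists too were chosen with earlier results of these data known, so the shares are no test. A difference below 0 was found in 18 of the 23, and the median was −0.45. It was −0.16 with no floor, where unread members count too, and −0.68 with the measured members compared as read. The 5 lower members read 6.35 to 10.21 in C3H10T1/2 and 4.70 to 6.79 in Venus, so they were low but read in Venus cells. That they were above the floor in untransfected cells follows from the call, which requires it.

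Among matrix genes, Col9a1, which encodes a chain of type IX collagen on the surface of cartilage fibrils, read 9.26 in C3H10T1/2, 5.36 in Venus and 3.40 on the array labelled Venus-Mkx. The difference was −3.91, the lowest of all measured genes, and its other probe set, at 5.48 and 4.37, gave −1.11. Cnmd, which encodes chondromodulin, an inhibitor of vessel growth in cartilage, read 10.21, 6.70 and 5.48 on the same arrays, 11.4-fold lower in Venus. Cytl1, which encodes a secreted protein of cartilage, read 8.85, 5.53 and 3.40, 9.97-fold lower in Venus. No such gap was seen in the major cartilage collagen, Col2a1, which read 10.99 and 10.53, nor in Col11a1, which read 10.05 and 9.55. Comp, a matrix glycoprotein gene of cartilage and tendon, read 5.69 and 5.01, and Matn4, a matrilin gene, 6.51 and 5.83. Acan, which encodes aggrecan, read 4.51 and 3.33, which is a difference of −1.19 as read and of −0.17 over the floor. In all 3 of 12 matrix genes were at least 2-fold lower, with a median of −0.48.

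Among regulators, Fgfr3, which encodes a receptor that restrains the growth of cartilage cells, read 8.55 and 6.79, and Sox6, a partner of SOX9, 6.35 and 4.70. Of the 4 Sox6 probe sets 3 passed 2-fold, and the remaining one was below the floor on both arrays. Sox9, the main regulator of the lineage, read 9.96 and 9.27, a difference of −0.69, and its next probe set gave −0.73. Wwp2, a ubiquitin ligase gene, read 10.46 and 9.70, and Arid5b, a chromatin factor gene, 10.03 and 10.08. In all 2 of 11 regulators were at least 2-fold lower, with a median of −0.30. The mean of all probe sets brought Fgfr3 to −0.96 and Sox6 to −0.85, short of 2-fold, which left 3 lower cartilage genes.

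**Figure D3:**
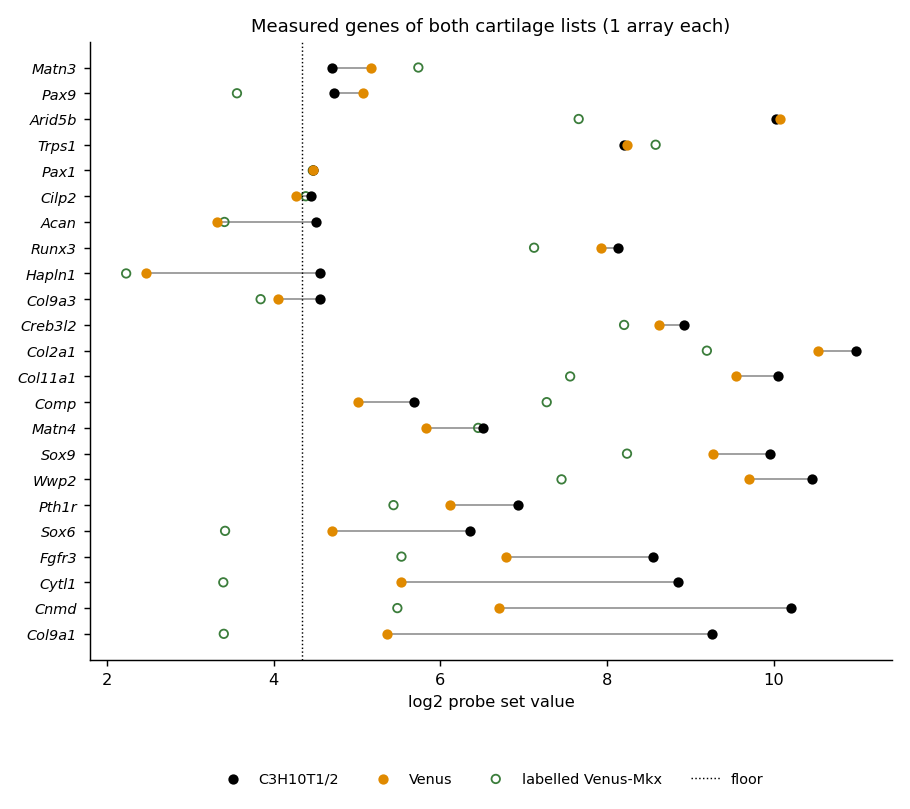
The log2 probe set value of each of the 23 measured genes of the cartilage lists is drawn on the horizontal axis, ordered by the difference of Venus from C3H10T1/2, with filled black points for C3H10T1/2, orange points for Venus, open green circles for the array labelled Venus-Mkx and a dotted line at the floor of 4.34. Orange lies left of black in 18 of 23 genes, and the widest gaps are those of Col9a1, Cnmd and Cytl1 at the bottom.

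Outside the cartilage lists 46 further genes were lower, 37 of them in no list. Cd24a, which encodes the surface protein CD24, read 9.81 and 7.56, and all 3 of its probe sets passed 2-fold. It was the 1 past 2-fold of 3 measured genes of the nucleus pulposus and notochord list. Col8a1, a short-chain collagen gene, read 10.66 and 8.69. Of secreted inhibitors of WNT signalling, Frzb, first known from cartilage, read 7.07 and 5.27, and Sfrp2 11.01 and 9.50. They were the 2 genes past 2-fold among 13 measured WNT components and inhibitors, whose median was −0.25, while the receptors Fzd1 and Fzd2 read 10.14 and 9.90, and 9.72 and 9.68. Mest, an imprinted gene of growing mesenchyme, read 10.84 and 9.13, and Sema3c, a guidance factor gene, 9.54 and 7.86. Lower by 1.52 to 1.63 were Zdhhc14, Wscd2 and Iqgap2, and the mean of all probe sets brought Zdhhc14 to −0.98. Otor, Papss2 and Trpv4, each active in cartilage, were named after their values were seen, and they had differences of −1.32, −1.04 and −1.36. A second probe set past 2-fold was found for 17 of the 18 lower genes that had another measured probe set, against 24 of 50 higher genes. Opposite sides were found for 1 higher gene, Ly6e, named after its values were seen, and for 0 lower genes.

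Tendon genes, the lineage that the study followed, moved in both directions. Of 15 measured members 3 were at least 2-fold higher, 20.0% against 1.22% of all measured genes. Lower were 2, 13.3% against 0.47%, and the median was 0.19. The higher ones were Egr1 and Egr2, already counted with the immediate early genes, and Dcn, which encodes decorin, a small proteoglycan of collagen fibrils. Dcn was below the floor at 4.06 in C3H10T1/2 and read 6.07 in Venus, with its other probe set below the floor on both arrays and a difference of 0.15 for the mean of both. The lower ones were Fmod, which encodes the related proteoglycan fibromodulin, at 11.71 and 10.54, and Tnmd, which encodes tenomodulin, at 10.74 and 9.70. Fmod had 6 probe sets, with differences of −0.99 to −1.20, of which the −0.99, short of 2-fold, came from the only one not marked as cross-hybridizing, and Tnmd had 1. Scx, the transcription factor gene of tendon progenitors, read 5.05 and 5.01, Tnc, which encodes tenascin-C, 9.50 and 8.76, and Mkx 6.88 and 7.43. Postn and Aspn, abundant matrix genes, read 11.92 and 12.39, and 11.62 and 12.14. Biglycan, from Bgn, was level at 13.36 and 13.39.

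Most collagens of fibrous tissue stayed within 2-fold, as did the fat, bone and smooth muscle lists. Of 17 collagens of fibrous tissue and basement membrane, Col8a1 was the 1 past 2-fold. Col27a1, a fibrillar collagen gene outside that list, was also lower, at 8.39 and 7.30, and was named after its value was seen. Col1a1 read 11.52 and 11.88, Col1a2 13.71 and 13.75 and Col3a1 13.10 and 13.53. None of 13 fat genes, 4 bone genes, 19 smooth muscle and actin genes or 13 matrix proteases and inhibitors passed 2-fold. Pparg, the main regulator of fat cells, read 7.59 and 7.74, Acta2, smooth muscle actin, 13.04 and 13.17, and Timp3, a protease inhibitor gene, 11.69 and 11.32. A small shift was seen in the smooth muscle list, with 16 of 19 members above 0 and a median of 0.17.

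The TGFβ and BMP lists, pathways that the study examined in the Mkx cells, and the Notch and IGF lists had medians near 0 between these 2 arrays. Of 14 TGFβ components 0 passed 2-fold, with Tgfbr2, the ligand-binding receptor, at 10.18 and 10.29, Smad3 at 8.83 and 8.88 and Smad4 at 10.87 and 10.91. Tgfbi, a secreted matrix gene known as a TGFβ target, was the 1 of 11 targets past 2-fold, at 6.40 and 8.36, and its 4 probe sets gave 1.83 to 2.03. Of 16 BMP components and antagonists Grem1, which encodes the BMP antagonist gremlin, was the 1 past 2-fold, at 7.62 and 9.15. Bmp4, a BMP ligand gene, had a difference of 0.03, and Smad1 read 9.19 and 9.21. The 11 BMP targets had a median of 0.04, with Id1 at 10.67 and 10.48. Notch1 read 9.47 and 8.75, and 0 of 10 Notch genes passed 2-fold. Of 11 genes of the IGF axis Pappa2, which encodes a protease of IGF-binding proteins, was the 1 past 2-fold, at 10.47 and 9.39.

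Growth and metabolic lists shifted little, and some did so in 1 direction. The 28 DNA replication and cell cycle genes lay between −0.16 and 0.34 with a median of 0.01, among them Pcna at 12.61 and 12.45 and Top2a at 11.78 and 11.79. All 18 measured cholesterol genes were above 0, by 0.058 to 0.54 with a median of 0.21, led by Hmgcs1, which encodes an early enzyme of the pathway, at 11.58 and 12.11. Of 28 hypoxia and glycolysis genes 23 were below 0, with a median of −0.26. Ankrd37, a target of the hypoxia factors, was the 1 past 2-fold in that list, at 5.83 and, below the floor, 3.54, and Pgk1 and Ldha, glycolytic enzyme genes, read 12.49 and 12.28, and 11.63 and 11.30. Of 22 genes of endoplasmic reticulum and amino acid stress 19 were below 0, with a median of −0.14 and Hspa5, the chaperone BiP, at 12.79 and 12.55. Of 13 p53 targets 10 were above 0, with a median of 0.33, and Cdkn1a, the cell cycle inhibitor p21, read 10.40 and 11.03. None of the cholesterol, stress or p53 genes passed 2-fold, nor did any of 9 heat shock genes or 10 NRF2 targets and metallothioneins. Ribosomal protein and housekeeping genes were level, with medians of 0.00 and −0.02 over 11 genes each and Actb at 13.68 and 13.66. Members of 1 list share regulation and 1 pair of arrays, so such counts do not measure how often the shift would recur.

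**Figure D4:**
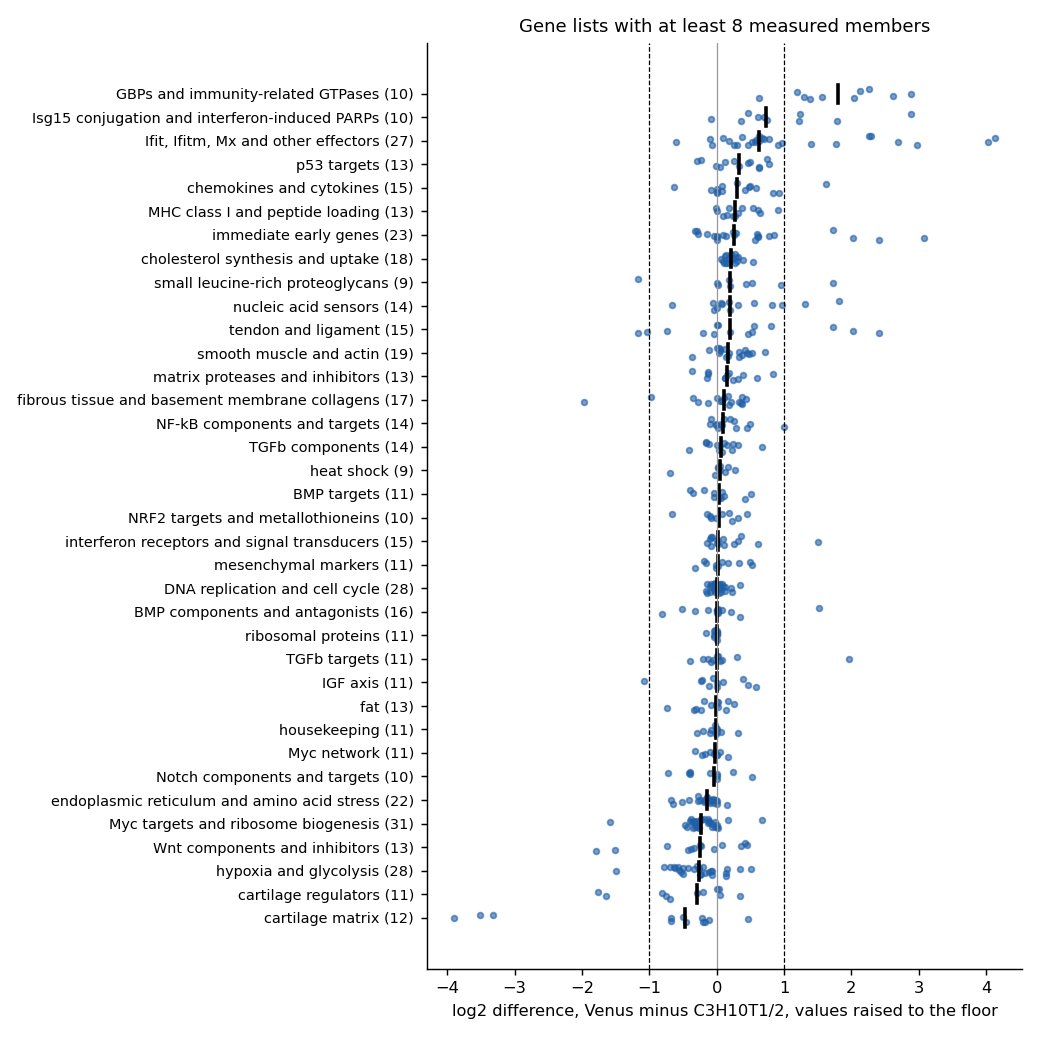
Each row is a gene list with at least 8 measured members, their number in parentheses, and each blue point is the log2 difference of 1 member, Venus minus C3H10T1/2, with a black bar at the list's median, lines at 2-fold and Mycn at 8.32 left out of its row. The list of guanylate-binding proteins and immunity-related GTPases has the highest median, 1.80, and cartilage matrix the lowest, −0.48.

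One gene of the 15 with the largest differences remains, and it belonged to no list. Esm1, which encodes the secreted proteoglycan endocan, was below the floor at 4.24 in C3H10T1/2 and read 7.19 in Venus and 5.18 on the array labelled Venus-Mkx. Of the 132 higher genes 93 were in no list, with differences up to 2.84, and of the 51 lower genes 37 were in none, with differences down to −1.71. The next 4 genes outside the lists were named after their values were seen. Selp, which encodes the adhesion molecule P-selectin, read 5.48, 7.72 and 4.49 on these arrays. Aldh1a7, an aldehyde dehydrogenase gene, read 3.80, 6.42 and 5.07, and Serpinb1b, a serpin gene, 4.27, 6.40 and 3.71. Abca1, the cholesterol exporter gene, read 4.38, 6.39 and 10.80.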

How the data were processed

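RNA from C3H10T1/2, Venus and Venus-Mkx cells, 1 culture each, was hybridized to Affymetrix mouse genome arrays. The authors deposited log2 intensity values per probe set. Their methods name MAS 5.0 and the submitters' processing notes name RMA, with no version, and the method behind the values was not settled here. Groups came from the labels. Gene symbols came from the platform annotation, updated through RefSeq on GRCm38.p6: 34945 probe sets had 1 symbol, 932 several and 9160 none, and 64 were array controls. Signal on 1 array per condition sets the precision, and no error could be estimated.

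Differences, counts, medians and motif matches were computed in Python 3.11.15 with pandas 2.3.3 and NumPy 2.4.6, and figures were drawn with matplotlib 3.10.9. A call needed a 2-fold difference over a floor of 4.34. Calling was tested on simulated data with a smaller spread than the SD of 0.32 seen here. Changes were simulated only in genes well above the floor. The simulation thus checks that the code runs as meant and cannot say how many calls here are false. Of 36.8% of all probe sets the deposited value was equal in C3H10T1/2 and Venus. The members and the 48 gene lists were chosen with earlier results of these data known. Named genes were the 15 largest and 15 smallest differences, Mycn, Mkx and genes the study names, and of each list up to 8 members past 2-fold and 4 others with the highest levels, besides those marked in the text. One list symbol, RIG-I, was respelled as Ddx58 to match RefSeq. Alternatives covered the floor, the probe sets per gene, the scaling and the threshold.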

Additional observations from a re-analysis of the deposited data

Results flagged for a closer look

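Probe sets outside the comparison also passed 2-fold. Of 932 probe sets whose annotation names several genes, 549 were measured, 14 lay at least 2-fold above C3H10T1/2 in Venus and 0 lay as far below. Of 9160 probe sets with no gene symbol, 2646 were measured, 16 lay at least 2-fold above and 11 at least as far below. Of all measured genes 1.22% were higher and 0.47% lower. Both shares of the probe sets with no symbol lay below these, while the higher share of those with several genes lay above. The largest difference among both kinds of probe set came from 1431591_s_at, which names several genes and read 5.64 in C3H10T1/2 and 8.64 in Venus. No gene is named from these probe sets.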

How the results depend on the processing

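No paired analysis was possible because each condition had 1 array, and for the same reason no replicate could be left out and no difference has an error. Other floors moved several values: with none, the cartilage median was −0.16, with the measured genes compared as read it was −0.68, and with the floor at the 75th percentile, 7.15, 37 genes were higher, 31 lower and 9 interferon genes higher, since weak values then meet the floor. With the mean of all probe sets 3 cartilage genes were lower, and of 95 higher genes 91 were among the 132. At 1.5-fold 412 genes were higher and 165 lower, with 49 interferon and 10 cartilage genes among them, and at 3-fold 39 were higher, 11 lower and 18 interferon genes higher. Counted by probe set with 1 symbol, 84 were lower. The motif was held by 41.4% of genes past 3-fold higher. Centring the arrays changed none of the 132 and 51 calls, but both arrays had a median of 4.34, so this alternative could hardly change them and is no check. Quantile normalization gave 125 and 54 calls, and leaving out probe sets marked _x_at or _s_at gave 123 and 52. For 240 named genes 1676 values were computed under the alternatives: 0 changed direction past 2-fold, 38 lost the call, 28 of them with the higher floor, and 8 gained it.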
